A study of Mus musculus with 4 samples.

Results

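The genes described here are 10 antiviral effectors that interferon induces: Ifit1, Ifit2, Ifit3 and Ifit3b of the IFIT family, Rsad2 (viperin) with its neighbour Cmpk2, the GTPases Mx1 and Mx2, and the membrane proteins Bst2 (tetherin) and Ifitm3. They were chosen by name, as the rows of the deposited gene table that carry these symbols, and each symbol had 1 row among the 34745 genes. The RNA came from bone marrow-derived macrophages (BMMs) of wt C57BL/6 male mice, 8 weeks old. After 12 h without FBS, all cells received 24 h of RANKL at 100 ng/mL, the cytokine that turns macrophages into osteoclasts. The RANKL+DI group (2 libraries) also received dimethyl itaconate (DI), a cell-permeable ester of the macrophage metabolite itaconate, and the RANKL+Veh group (2 libraries, labelled DMSO) received the solvent. The labels give the dose of DI as 20 mM and the study's methods give it as 20 μM. No group without RANKL was analysed here, so each value below compares DI with vehicle in RANKL-treated cells.

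Type I and type II interferons act through surface receptors and JAK kinases on STAT proteins, which with IRF9 form ISGF3, the complex that binds the interferon-stimulated response element (ISRE) in promoters. The products of the genes it switches on block viruses at different steps: IFITM proteins at entry, Mx proteins and IFIT proteins inside the cell, viperin at RNA synthesis and tetherin at release. Macrophages keep a low level of this programme running through autocrine interferon, and RANKL induces interferon-beta in osteoclast precursors, where it restrains differentiation.

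The promoters of the members are shown first, because most of those that could be searched hold a known regulatory letter pattern. RefSeq promoters (GRCm38.p6, 250 bases before to 50 bases after the start) were at hand for 8 members, all but Mx1 and Mx2. The ISRE core was searched on both strands as 2 copies of GAAA with any 2 bases between them, and 6 of the 8 promoters (75%) held at least 1 match, against 1079 of 27025 promoters of all genes (3.99%). The stretches around the matches are printed along the strand of the gene, with the matched letters in capitals. A match on the opposite strand reads as 2 copies of TTTC.
Ifit1, chr19:34640760-34640838, plus strand: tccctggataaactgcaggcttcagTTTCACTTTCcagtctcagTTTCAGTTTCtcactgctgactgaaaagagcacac
Ifit3, chr19:34583348-34583441, plus strand: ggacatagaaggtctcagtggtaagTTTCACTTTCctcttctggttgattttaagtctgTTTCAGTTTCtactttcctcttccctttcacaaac
Ifit3b, chr19:34607744-34607837, plus strand: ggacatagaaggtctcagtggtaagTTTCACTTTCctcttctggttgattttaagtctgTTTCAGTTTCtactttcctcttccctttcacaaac
Rsad2, chr12:26456538-26456597, minus strand: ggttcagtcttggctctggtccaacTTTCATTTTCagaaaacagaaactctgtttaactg
Bst2, chr8:71537562-71537627, minus strand: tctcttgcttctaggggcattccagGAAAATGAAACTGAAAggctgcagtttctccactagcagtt
Ifitm3, chr7:141010716-141010767, minus strand: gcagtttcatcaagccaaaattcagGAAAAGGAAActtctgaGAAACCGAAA

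Ifit1, Ifit3, Ifit3b, Bst2 and Ifitm3 held 2 matches each, and the pair in Bst2 overlap. Rsad2 held 1 match, and the Ifit2 and Cmpk2 windows held none, which says only that these letters are absent from those 300 bases. In Ifitm3 both matches lie after the start, at bases 3 to 12 and 20 to 29, while in the other promoters they lie between 188 and 76 bases before it. The printed stretches of Ifit3 and Ifit3b are letter for letter the same, and over 274 aligned positions of the 2 promoters 94.5% were identical. The gamma-activated sequence, an element bound by STAT dimers and searched as TTC and GAA with any 3 bases between them, matched in the promoters of Ifit2, Bst2 and Ifitm3, 3 of 8 (37.5%), against 9.55% of all promoters. In Bst2 and in Ifitm3 that match overlaps an ISRE core match by a few letters. Among genes with a promoter at hand, the ISRE core occurred in 61 of the 750 that fell with DI (8.13%), in 22 of the 669 that rose (3.29%) and in 275 of the 7798 that passed no threshold (3.53%). For the gamma-activated sequence the same 3 shares were 9.33%, 8.22% and 8.08%, close to each other. The members are counted among the genes that fell. In the interferon pathway lists described below, the ISRE core occurred in 0 of 8 receptor and JAK promoters and in 6 of 13 ligand promoters (46.2%). It occurred in 3 of 8 promoters of other IFIT and IFITM genes (37.5%) and 7 of 21 of other antiviral effectors (33.3%). A match is a description of letters, not of a bound site.

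Totals ran from 16085692 to 19403480 counts per library, and 3 counts, taken as the floor, were worth 0.160 to 0.180 CPM, the unit of counts scaled to a common library size with TMM factors of 0.963 to 1.04. The 2 libraries of a group differed by more than sampling noise, so they were counted as 2 samples. The labels do not say whether they came from separate cultures or mice, and p-values may therefore measure technical spread only. Called below means a Benjamini-Hochberg adjusted p under 0.05 in edgeR's quasi-likelihood test over 12590 genes. In bulk RNA, fewer cells of one kind and less RNA per cell cannot be told apart.

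All 10 members were lower with DI, and all 10 were called. The background for that count is 14.8% of tested genes called in either direction, 7.7% lower and 7.14% higher. The members were chosen with earlier results of these data known, so this and the shares below describe them and do not test the set. The members' log2 fold changes ran from -2.75 (Ifit3b) to -0.32 (Bst2) with a median of -1.65, while the median over all tested genes was 0.00. In each of the 10, the lower vehicle library exceeded the higher DI library, which held in that direction for 29.6% of tested genes. In each, that gap was also wider than the distance between the libraries of either group, which held for 15.7% of tested genes. All 10 passed the filter on low counts. For 9 of them both groups reached the filter's level of 0.558 CPM, but Ifit3b reached it in the vehicle libraries alone, so that its difference was partly a condition of being tested.

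**Figure D1:**
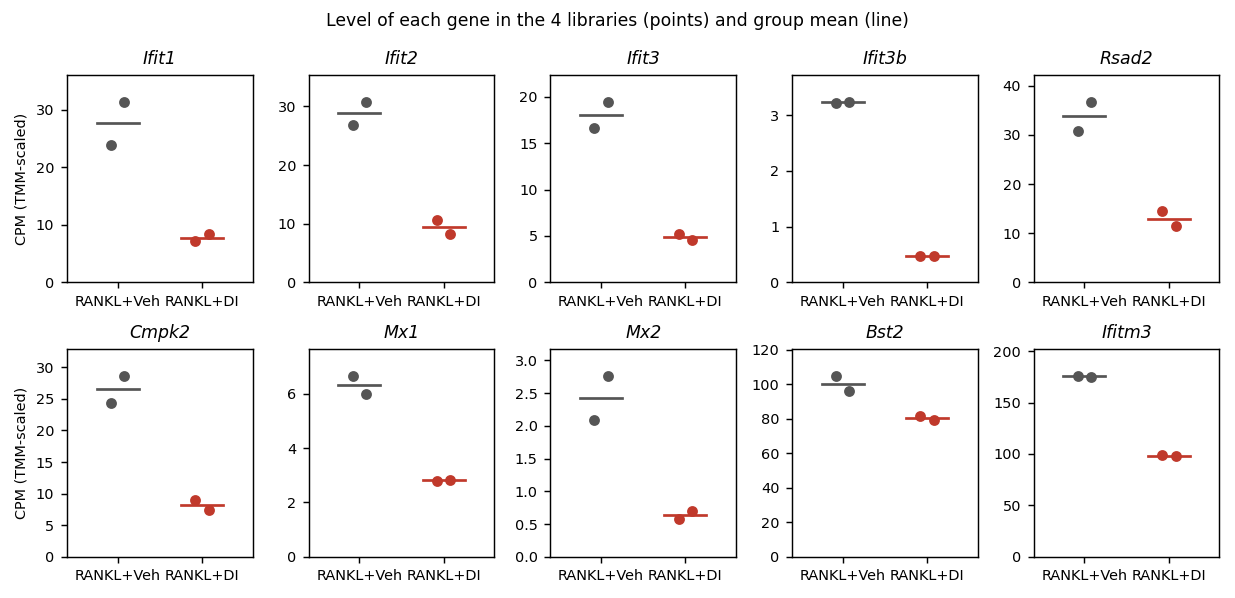
Scaled CPM of the 10 members in each library (points), 1 panel a gene with its own linear axis from 0, with RANKL+Veh in grey and RANKL+DI in red and a line at each group's mean. The vehicle points lie above the DI points for each gene, by the largest ratio for Ifit3b (0.466 and 0.480 against 3.22 and 3.24) and the smallest for Bst2 (81.6 and 79.0 against 104.7 and 95.8).

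The IFIT proteins are built from tetratricopeptide repeats and bind viral RNA or each other. Their median log2 fold change was -1.85 over the 4 genes. The 4 genes lie in 1 cluster on chromosome 19 (GRCm38), all on the plus strand.

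Ifit1 (ENSMUSG00000034459, chr19:34640871-34650009) recognises RNA whose cap lacks the methyl marks of host messages and keeps it from being translated. It had 7.17 and 8.43 CPM with DI and 23.8 and 31.4 CPM with vehicle. Both DI libraries were far below both vehicle libraries, and the vehicle libraries differed more from each other than the DI libraries did. The log2 fold change was -1.82 (SE 0.17, edgeR adjusted p = 0.00246), a level 3.53-fold lower with a 95% interval of 2.65 to 4.71.

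Ifit2 (ENSMUSG00000045932, chr19:34550694-34576419), which binds RNA and other IFIT proteins, had 10.7 and 8.21 CPM with DI and 26.8 and 30.8 CPM with vehicle. Here the DI libraries were the more spread pair, and the groups were still apart. Its level was 3.04-fold lower (2.36 to 3.94), a log2 fold change of -1.61 (SE 0.15, edgeR adjusted p = 0.00248).

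Ifit3 (ENSMUSG00000074896, chr19:34583531-34588731), which joins complexes with other IFIT proteins, had 5.19 and 4.59 CPM with DI and 16.6 and 19.5 CPM with vehicle. The log2 fold change was -1.88 (SE 0.14, edgeR adjusted p = 0.00129). Its copy Ifit3b (ENSMUSG00000062488, chr19:34607970-34613401) had few counts, 8 and 9 under DI against 60 and 54 under vehicle, that is 0.473 ± 0.00983 against 3.23 ± 0.0148 CPM (SD, n = 2). The libraries of each group almost coincided. The log2 fold change of Ifit3b was -2.75 (SE 0.28, edgeR adjusted p = 0.00301), the 10th lowest of the 12590 tested genes, with an interval of 4.20 to 10.8-fold.

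The transcripts of Ifit3 and Ifit3b are 97.8% identical over 97.4% of Ifit3, so reads could have been split between them in counting, and each of the 2 values is uncertain. Summed into 1 row, the DI libraries held 97 and 95 counts and the vehicle libraries 370 and 378. The summed log2 fold change was -1.99 (SE 0.13, edgeR adjusted p = 8.13e-04), which no longer depends on how the reads were divided. Their intervals, -2.23 to -1.54 for Ifit3 and -3.44 to -2.07 for Ifit3b, overlap.

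Rsad2 and Cmpk2 lie head to head on chromosome 12. Viperin, the product of Rsad2 (ENSMUSG00000020641, chr12:26442753-26456452, minus strand), turns CTP into a nucleotide that ends viral RNA chains. Cmpk2 (ENSMUSG00000020638, chr12:26469204-26479835, plus strand) encodes a mitochondrial kinase that makes CDP and UDP from their monophosphates. Rsad2 had 14.4 and 11.5 CPM with DI and 30.8 and 36.7 CPM with vehicle, and Cmpk2 had 9.03 and 7.36 against 24.4 and 28.6 CPM. The libraries kept the same order for both genes, with the second DI library lowest and the second vehicle library highest. Rsad2 was 2.60-fold lower (2.03 to 3.32, log2 fold change -1.38, SE 0.14, edgeR adjusted p = 0.00329). Cmpk2 was 3.24-fold lower (2.54 to 4.13, log2 fold change -1.69, SE 0.14, edgeR adjusted p = 0.00190). The intervals of the pair overlap.

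Mx1 and Mx2 encode dynamin-like GTPases. In most laboratory mouse strains, C57BL/6 among them, both genes carry mutations that leave no working protein, and the annotation calls Mx2 a polymorphic pseudogene, so here they report on transcript level alone. Mx1 (ENSMUSG00000000386, chr16:97447035-97462907, minus strand) received 48 and 53 counts under DI against 124 and 100 under vehicle. In CPM, the DI libraries were nearly equal (2.80 and 2.83) and both vehicle libraries were higher (6.66 and 6.00). The log2 fold change was -1.17 (SE 0.16, edgeR adjusted p = 0.00789), a level 2.25-fold lower (1.70 to 2.97).

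Mx2 (ENSMUSG00000023341, chr16:97535308-97560900, plus strand) was the lowest member in vehicle, with 39 and 46 counts, against 10 and 13 under DI. The log2 fold change of -1.91 (SE 0.32, edgeR adjusted p = 0.0147) had the largest standard error of the members, and the interval ran from 2.17 to 6.49-fold. Without the second vehicle library it was -1.70 and the edgeR adjusted p was 0.0740, so the call for Mx2 rests on that library. The Mx transcripts share a stretch at 94.8% identity, 33.0% of Mx1 and 38.1% of Mx2, so some of their reads could have been exchanged.

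Bst2 and Ifitm3 act at membranes and were by far the most abundant members. Ifitm3 (ENSMUSG00000025492, chr7:141009586-141010770, minus strand) sits in endosomes and hinders fusion of viral with cell membranes. It had 99.0 and 97.8 CPM with DI and 176 and 175 CPM with vehicle. The libraries of each group almost coincided, and the groups were far apart. The level was 1.78-fold lower with DI (1.66 to 1.91, log2 fold change -0.83, SE 0.041), and its edgeR adjusted p of 4.69e-04 was the lowest among the members.

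Tetherin, the product of Bst2 (ENSMUSG00000046718, chr8:71534264-71537437, minus strand), holds budding virus particles on the cell surface. It had 81.6 and 79.0 CPM with DI and 104.7 and 95.8 CPM with vehicle, a change of 1.25-fold (1.12 to 1.39). The log2 fold change was -0.32 (SE 0.063, edgeR adjusted p = 0.0234), at rank 1666 from the lowest of the 12590. The gap between the groups, 0.23 on the log2 scale, was not much wider than the 0.13 between the vehicle libraries. Without the second DI library the value was -0.29 (edgeR adjusted p = 0.0640), and without the first vehicle library it was -0.26 (edgeR adjusted p = 0.0812), so the call for Bst2 is the weakest of the 10.

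**Figure D2:**
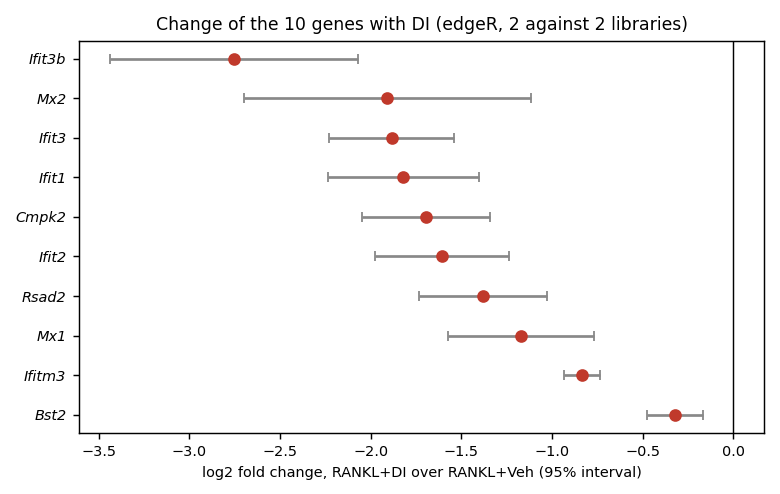
Log2 fold change of each member, RANKL+DI over RANKL+Veh, with its 95% interval from edgeR. The interval of each of the 10 lies below 0, those of Bst2 (-0.47 to -0.17) and Ifitm3 (-0.94 to -0.73) overlap none of the IFIT intervals, and those of Ifit3b and Mx2 are the widest.

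The size of the difference separated the members. The interval of Bst2 lay above that of each other member, and the interval of Ifitm3, with -0.94 as its lower end, overlapped that of Mx1 (upper end -0.77) but none of the other 8. Among Ifit1, Ifit2, Ifit3, Rsad2, Cmpk2, Mx1 and Mx2 the intervals overlapped from gene to neighbouring gene, so no order among them can be read from 2 libraries a group.

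Levels between genes can be compared per transcript length, in FPKM. In vehicle, Ifitm3 had 268 ± 0.979 and Bst2 136 ± 8.61 FPKM (SD, n = 2). Ifit1 (10.8 ± 2.08), Ifit3 (10.7 ± 1.18), Cmpk2 (8.58 ± 0.973), Rsad2 (7.22 ± 0.902) and Ifit2 (6.83 ± 0.670 FPKM) followed within overlapping spreads of their neighbours. Ifit3b (1.67 ± 0.00701), Mx1 (1.25 ± 0.0915) and Mx2 (0.496 ± 0.0963 FPKM) were lowest. With DI, the levels of the first pair were 139.9 ± 0.839 and 101 ± 1.97 FPKM, and the other 8 lay between 0.121 (Mx2) and 2.83 (Ifit1). Over the 10 members, Spearman's rho between the vehicle level in FPKM and the log2 fold change was 0.49, given as a description since the points share the same libraries.

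Summed over the 10 genes, the libraries held 231 and 221 CPM with DI and 415 and 430 CPM with vehicle. Bst2 and Ifitm3 made up 78.2% and 80.0% of that sum with DI and 67.6% and 63.0% with vehicle. The other 8 together had 50.4 and 44.1 CPM with DI and 134 and 159 CPM with vehicle. Within groups the members did not move as a block: the second DI library was above the first in 4 members and below it in 6, and the second vehicle library was above the first in 7 and below it in Mx1, Bst2 and Ifitm3.

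**Figure D3:**
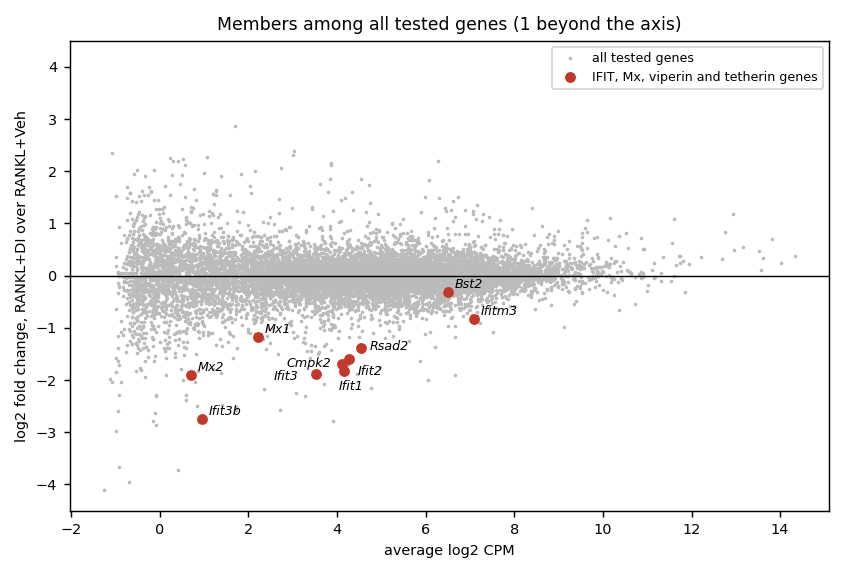
Average log2 CPM (x axis) against log2 fold change of RANKL+DI over RANKL+Veh (y axis) for the 12590 tested genes, with the 10 members marked. The 8 members other than Bst2 and Ifitm3 lie at the lower edge, at ranks 10 to 142 from the lowest fold change, with Ifitm3 at rank 305 and Bst2 at rank 1666.

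Relatives of the members in the same families were mostly rare. Of 8 other IFIT and IFITM genes, 4 could be tested and 1 was called. That was Ifit1bl1 (chr19:34592888-34601968), an Ifit1-like gene inside the cluster, at 7 and 16 counts under DI against 52 and 41 under vehicle (log2 fold change -2.03, SE 0.37, edgeR adjusted p = 0.0185). Its first DI library, at 0.408 CPM, lay below the filter's level of 0.558 CPM, which both vehicle libraries reached. As for Ifit3b, the difference of Ifit1bl1 was therefore partly a condition of being tested. Without the first or the second vehicle library its edgeR adjusted p was 0.0817 or 0.0612. Ifitm2, the nearest relative of Ifitm3 and like it an endosomal entry inhibitor, gave a different picture. It had 77.9 and 83.4 CPM with DI and 83.3 and 77.5 CPM with vehicle, a difference of 0.00 with an interval of -0.16 to 0.17 (edgeR adjusted p = 0.977). The groups overlapped completely for Ifitm2, while Ifitm3 was apart in all libraries. The interval of Ifitm3, -0.94 to -0.73, does not reach that of Ifitm2. Transcripts of Ifitm2 have several pseudogene copies of 90% identity or more, and part of Ifitm3 is 91.6% identical to Gm6885, so their counts are uncertain to that extent. Of the exon sequence of Ifitm2, 40.9% also overlaps Gm45717 on the same strand, which adds to the uncertainty of its count.

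**Figure D4:**
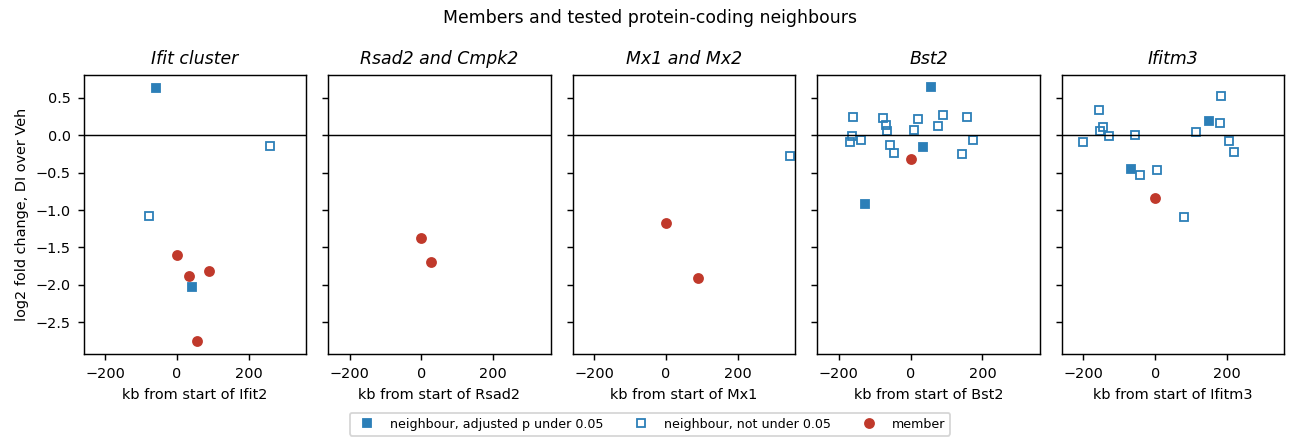
Log2 fold change of tested genes at the chromosomal loci of the members, members as red circles and protein-coding neighbours as squares (filled where called), with the distance in kb between the lowest coordinates of the genes on the x axis. Ifit1bl1 at -2.03 lies among the 4 IFIT members, while Lipa, at the edge of the same cluster, lies on the other side of 0 at 0.62.

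Of 65 other protein-coding genes that start within 250 kb of a member, 40 were tested: 3 rose, 4 fell and 33 were not called, with a median of -0.02. Next to the IFIT cluster, Lipa, the lysosomal acid lipase that frees cholesterol from its esters, rose from 2386 ± 41.2 to 3674 ± 43.5 CPM (SD, n = 2, log2 fold change 0.62, SE 0.031, edgeR adjusted p = 4.69e-04). Near Bst2, Pgls of the pentose phosphate pathway rose (0.64, SE 0.065, edgeR adjusted p = 0.00305), although 20.6% of its exon sequence overlaps Fam129c and the sources do not say whether strand was counted. The other calls were Rnh1 (0.19), Ankle1 (-0.92), Athl1 (-0.46) and Slc27a1 (-0.16). Each of these 4 calls was lost with a library left out: the edgeR adjusted p was 0.0743 for Rnh1 and 0.168 for Athl1 without the first DI library, 0.161 for Slc27a1 without the second, and 0.126 for Ankle1 without the first vehicle library. At the Rsad2 and Cmpk2 locus the other neighbour, Rnf144a, could not be tested, and at the Mx locus Prdm15 was not called (-0.28, edgeR adjusted p = 0.349).

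Upstream of the members, the listed interferon genes gave no reads. All 13 ligands had 0 counts in all 4 libraries, among them Ifnb1, Ifng, Ifna1, Ifna2, Ifna4, Ifna5, Ifna6 and Ifnab. Interferon genes outside this list were not examined. A count of 0 allows up to 3 counts, or 0.160 to 0.180 CPM, per library. This limit covers counting error only, and RNA was taken at 1 time. Of 9 receptor and JAK genes 8 were tested and 0 were called by edgeR in either direction, with 1 (Jak1) at an unadjusted p under 0.05. DESeq2's Wald test, limma-voom and edgeR's exact test also called 0. Their log2 fold changes ran from -0.08 (Ifnar2) to 0.13 (Jak1, edgeR adjusted p = 0.0663) with a median of 0.01. The interval of Ifnar1, a chain of the type I receptor, was -0.10 to 0.09. With scaling by library size only, which moved the median of all tested genes by -0.10, Ifnar2 was called lower (-0.18, edgeR adjusted p = 0.0485).

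The transcription factors split. Of the 9 STAT and IRF genes, 4 fell, 1 rose and 4 were not called, with a median of -0.24. Of the ISGF3 components, Stat2 had 59.5 and 53.9 CPM with DI and 82.5 and 90.1 CPM with vehicle (-0.61, SE 0.078, edgeR adjusted p = 0.00618), and Irf9 stood at -0.46 (edgeR adjusted p = 0.00980). Irf7, which amplifies the interferon response and is itself induced by it, had 12.6 and 14.8 CPM with DI and 32.5 and 29.9 CPM with vehicle (-1.18, SE 0.11, edgeR adjusted p = 0.00248). Irf8, a macrophage lineage factor that restrains osteoclast formation, rose from 91.4 and 92.3 to 124 and 126 CPM (0.45, SE 0.045, edgeR adjusted p = 0.00301). Irf5 had 134 and 201 CPM with DI and 110 and 101 CPM with vehicle (0.67, edgeR adjusted p = 0.0596), and it was called without either DI library (0.93 without the first, edgeR adjusted p = 3.84e-04, and 0.35 without the second, edgeR adjusted p = 0.0256). Irf1 (-0.24), Irf3 (-0.15) and Irf2 (0.01) were not called.

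Among 6 genes that restrain interferon signalling, 2 fell and 4 were not called. Usp18, which removes ISG15 from proteins and blocks the type I receptor, stood at -1.31 (SE 0.18, edgeR adjusted p = 0.00776), a value within the range of the members. Socs3 stood at -0.99 (SE 0.16, edgeR adjusted p = 0.0119), and without the first vehicle library at -0.95 (edgeR adjusted p = 0.0551). Socs1 (-0.01), Ptpn2 (-0.15), Pias1 (-0.12) and Ptpn6 (-0.06) were not called.

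Of 14 sensors, adaptors and kinases that lead to interferon induction, 4 fell, 1 rose and 9 were not called. Those that fell are themselves interferon-induced: Zbp1 (-1.16, edgeR adjusted p = 0.00641), Dhx58 (-1.10, edgeR adjusted p = 0.00196), Ddx58, which encodes RIG-I (-0.84, edgeR adjusted p = 0.00675), and Ifih1. Ticam1, the adaptor of TLR3, rose (0.41, edgeR adjusted p = 0.0376), a call lost with any 1 library left out (edgeR adjusted p = 0.0522 to 0.135). Ticam1 and Ifih1 are named after their values were seen. Among 25 tested antiviral effectors other than the members, 18 fell, with a median of -0.57 against -1.65 for the members. The furthest were Ifi44 (-1.86, edgeR adjusted p = 0.0212), Rtp4 (-1.75, edgeR adjusted p = 0.00348) and the ubiquitin-like Isg15 (-1.51, edgeR adjusted p = 0.00953). Without the second vehicle library Ifi44 stood at -1.57 (edgeR adjusted p = 0.0898). These lists were written with results of these libraries known and are not independent evidence of a direction.

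**Figure D5:**
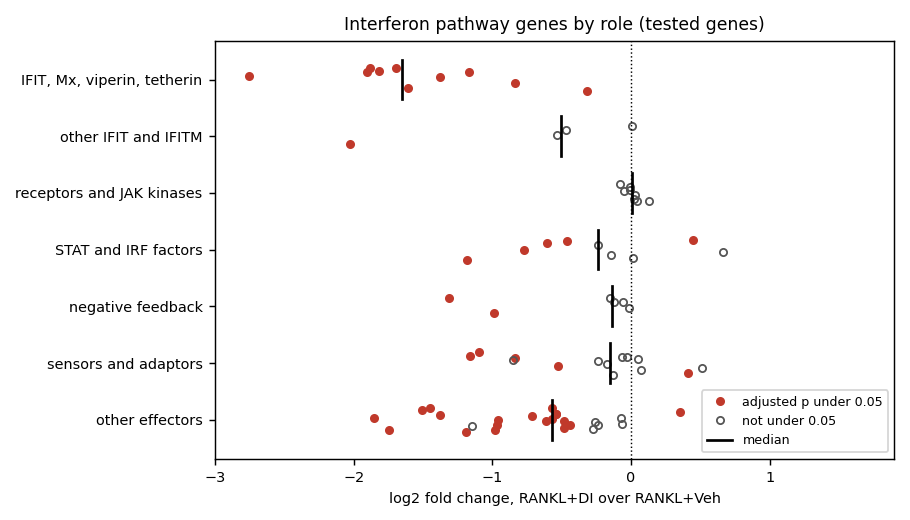
Log2 fold change of the tested genes of each interferon pathway list, 1 point a gene (filled where called), with the members in the top row and a line at each median. Receptors and JAK kinases lie within -0.08 to 0.13, while the other effectors have a median of -0.57 and the members of -1.65.

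The genes whose pattern over the 4 libraries was most like the members' were sought among 11000 tested genes with an average log2 CPM over 1, by the root mean square difference between a gene's centred log2 CPM and the members' mean profile. The nearest was Oasl2 (0.0609), a 2'-5' oligoadenylate synthetase-like effector, with 42.7 and 39.3 CPM with DI and 103 and 110 with vehicle. It was followed by Cd207 (0.0724), the lectin langerin, Cyp2s1 (0.0919), a cytochrome P450, Phf11b (0.0944) and Gja1 (0.109), a gap junction protein. Their log2 fold changes lay between -1.59 and -1.33. With 4 libraries this measure mostly reflects the difference between the groups.

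The libraries carried macrophage markers throughout, which fits the label of the cells: the 10 rows of 9 markers summed to 29162 and 29937 CPM with DI and 23747 and 22886 CPM with vehicle, with 6 rows higher, 1 lower (Fcgr1, -0.60, edgeR adjusted p = 0.106 without the second vehicle library) and 3 not called. Lyz2 carried most of the macrophage sum, with 22772 and 23786 CPM with DI and 18289 and 17630 CPM with vehicle. Itgam had 2 of the 10 rows. Osteoclast genes moved with the groups too, 5 of 7 tested being lower and 1 higher. Atp6v0d2, a proton pump subunit and the gene that rose, carried most of the list's level, with 509 and 509 CPM with DI and 427 and 418 CPM with vehicle. The other 8 genes summed to 181 and 169 CPM with DI and 311 and 297 CPM with vehicle. Among them Ocstamp (-2.52, edgeR adjusted p = 0.00240), needed for cell fusion, and the protease Mmp9 (-1.64, edgeR adjusted p = 5.40e-04) differed by as much as members did. The part of this shift in the members' difference was not tested. Bst2 is also a marker of plasmacytoid dendritic cells. Of the 8 other markers of those cells, Siglech, Klk1 and Ly6d had 0 counts in all libraries and only Tcf4 reached the filter. The sums were 36.2 and 36.1 CPM with DI and 39.7 and 32.1 CPM with vehicle. Tcf4 carried most of each sum, with 35.4 and 35.6 CPM with DI and 38.5 and 31.0 CPM with vehicle. Conventional dendritic cell markers summed to 10 to 16 counts and B cell markers to 2 to 10 counts per library, with Pax5 at 0. Of the 40 genes in the dendritic, B, T and NK, neutrophil and stromal lists, only 10 had enough counts to be tested, and 0 of those were called by edgeR, with 2 at an unadjusted p under 0.05.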

How the data were processed

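RNA from RANKL+DI and RANKL+Veh BMMs (2 libraries each) was sequenced as mRNA libraries from both ends. Raw counts for each gene were deposited by the authors and used unchanged. FPKM values, also deposited by the authors, served for levels per length and for 2 alternatives. The aligner, counting program and use of strand are not given in the sources used here. The submitters' processing notes name GRCm38 (mm10). Of the 34745 gene identifiers, 34267 are in GENCODE M21, all on the same chromosome. Samples were grouped by their treatment label.

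Counts were fitted in R 4.3.3 with edgeR 4.0.16 (TMM, default filter on low counts, quasi-likelihood test with the condition as its only term, two-sided, Benjamini-Hochberg over 12590 genes, threshold 0.05). Standard errors and 95% intervals came from the F statistic. There were 2 residual degrees of freedom before moderation. Depth was 16085692 to 19403480 counts per library, and intervals cover these libraries only. Near copies were sought by BLAST among GENCODE M21 transcripts (at least 90% identity over at least 20% of a transcript). The steps were tested on simulated data.

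The 10 members, the gene lists and the tests were chosen with earlier results of these data known. Text names the members, up to 3 called genes of a list with the largest change, the receptor, transcription factor and feedback genes, called neighbours within 250 kb and the 5 genes nearest in pattern. A second deposited table, the same genes with pathway annotation, was not used. Alternatives were other scalings, filters and tests (DESeq2 1.42.0, limma 3.58.1), log2(FPKM + 0.1) and log2(FPKM + 1), the replicate number as a block, Ifit3 and Ifit3b summed, and each library left out. With 2 libraries a group, no exact permutation test can pass the threshold, so none is given. A few genes that this rule or the lists include are not reported here.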

Additional observations from a re-analysis of the deposited data

How the results depend on the processing

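Across 150 values of the 10 members under the alternatives, 147 kept the call and none changed sign. The 3 lost calls are those of Mx2 and Bst2 given above. With at least 10 counts required in every library, Ifit3b (8 and 9 counts with DI) was not tested and 9 members were called. On log2(FPKM + 1), which understates low genes, Ifit3b stood at -1.12, Mx1 at -0.57 and Mx2 at -0.41, all 3 still called. Over all genes, 1868 were called (969 lower, 899 higher). Scaling by library size only shifted the median of all tested genes by -0.10 and gave 1932 lower and 548 higher, log2(FPKM + 0.1) 1667 and 532, and log2(FPKM + 1) 1674 and 536. With a library left out, 1087 to 1394 genes were called, 529 to 712 lower and 558 to 682 higher, and the members called were 9 to 10. Among the lists, the count of IFIT and IFITM relatives that fell went from 1 to 0 with at least 10 counts in every library and was 0 to 1 with a library left out. The count of receptors that fell went from 0 to 1 (Ifnar2) with library size only. The count of STAT and IRF genes that rose went from 1 to 2 (Irf5) without the filter and with edgeR's exact test, and was 1 to 2 with a library left out. The count of feedback genes that fell was 1 to 2 with a library left out. The counts of sensors and of other effectors that rose each went from 1 to 0 with library size only and with DESeq2's Wald test. The same held for the replicate block and both FPKM scales. Both counts also moved with a library left out. Without the second vehicle library a sensor other than Ticam1 was called higher, since the call for Ticam1 was lost there. Of the 4 neighbours that fell, DESeq2's Wald test called 2, the replicate block 1, and fits with a library left out 0 to 1. The replicate block gave 1389 genes called, and all 10 members remained called. The numbers were not taken to pair the libraries, because same-numbered libraries deviated with a correlation of -0.0734 over 11008 genes and nothing in the labels ties them. Of 1094 values of 73 single genes, 1018 kept their call, 65 lost it, 11 gained one and 0 reversed. With 2 libraries a group, no order could be read among members with changes of similar size.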
